A study of Canis lupus familiaris with 10 samples.

Results

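Glycolysis is the chain of enzymes that splits glucose into pyruvate with a net gain of ATP, and in the vertebrate retina much of the pyruvate is turned into lactate even when oxygen is present, above all in photoreceptors. When oxygen falls, the prolyl hydroxylases of the EGLN family stop marking the α subunits of the hypoxia-inducible factors (HIF1A and EPAS1, also called HIF-2α) for destruction, and these factors then switch on genes for glucose uptake, glycolysis, vessel growth and mitochondrial turnover. Glaucoma damages retinal ganglion cells and their axons under raised intraocular pressure, and reduced oxygen supply to the inner retina is one of the stresses studied in the disease.

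The module examined here holds 40 genes of glycolysis and the hypoxia response, chosen by gene symbol: 17 glycolytic enzymes, 9 glucose transporters and regulators of flux, 4 genes of oxygen sensing and 10 targets of hypoxia-inducible factors. A probe set is the group of array probes that reads 1 transcript. Of the 40 genes, 39 had at least 1 probe set annotated with that symbol alone, out of 15115 genes on the array, and LDHB had none. The 39 genes had 86 probe sets, of which 64 were expressed, that is, above a log2 intensity of 7 in at least 2 retinas. These 64 probe sets read 33 of the members, out of 7900 expressed genes in all. PFKFB2, PFKFB4, EGLN3, BNIP3 and DDIT4 had probe sets only below that level, and so had GAPDH once the control probe sets of the array, 3 of which carry its symbol, were set aside.

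Neural retina from 1 eye of each of 5 dogs with advanced primary glaucoma and of 5 control dogs was measured with 1 Affymetrix Canine Genome 2.0 array per dog. The glaucoma dogs were a Shiba Inu of 5 years and one of 14 years, called the younger and the older Shiba Inu here, a Basset Hound of 5 years and one of 7 years, called the younger and the older Basset Hound, and a Dalmatian of 9 years. All of these had closed drainage angles and had been treated with topical drugs that lower intraocular pressure, whereas the 5 controls were untreated Beagles of 4 years without eye disease. Ages are those of the sample labels, and for the older Shiba Inu and the Dalmatian the study's description gives other ages. The glaucomatous eyes were enucleated from clinic patients to ease pain, whereas the control dogs were euthanized for other reasons. Disease, breed, age, drug treatment and the way the eyes were obtained cannot be told apart. No glaucoma dog shared the breed, the age or the lack of treatment of the controls, and the source of the eyes differed too.

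Values are log2 intensities, and a difference is the glaucoma mean minus the control mean on that scale, from limma with Benjamini-Hochberg adjustment over all 18416 expressed probe sets. A gene is said to have risen or fallen where the adjusted p of its brightest expressed probe set was under 0.05. The normalized arrays had 15910 to 16315 probe sets above 7. The array of the younger Shiba Inu stood apart, with correlations of 0.849 to 0.917 with the other glaucomatous retinas, whereas control retinas correlated at 0.953 to 0.982 with each other. Its rod photoreceptor markers had a median deviation from the control mean of -2.94 (other glaucomatous retinas -0.45 to 0.08) and its pigment epithelium markers one of 2.83 (others -0.35 to 0.63). Control Beagle 4 also had high pigment epithelium markers, at 2.01 against -0.56 to -0.28 in the other controls.

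In the glaucomatous retina, 5 members fell, all of them glycolytic enzymes, and 3 members rose, all of them genes of oxygen sensing or its targets. The 5 that fell were PFKL, ALDOA, ALDOC, TPI1 and PGK1, which catalyse steps in the upper and middle part of glycolysis, at 58.3% to 73.2% of the control level. The 3 that rose were EPAS1, P4HA1 and KDM3A, by 1.32- to 2.05-fold. The other 25 did not pass the test. As shares of the 33 members tested, 9.09% rose and 15.2% fell, whereas 8.04% of all 7900 genes rose and 8.65% fell. The median difference was 0.06 over the members and -0.01 over all genes. Only P4HA1 rose by at least 2-fold and no member fell by as much, while 3.27% and 2.71% of all genes did so. In bulk retina, fewer cells of a type and less RNA per cell cannot be told apart.

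**Figure D1:**
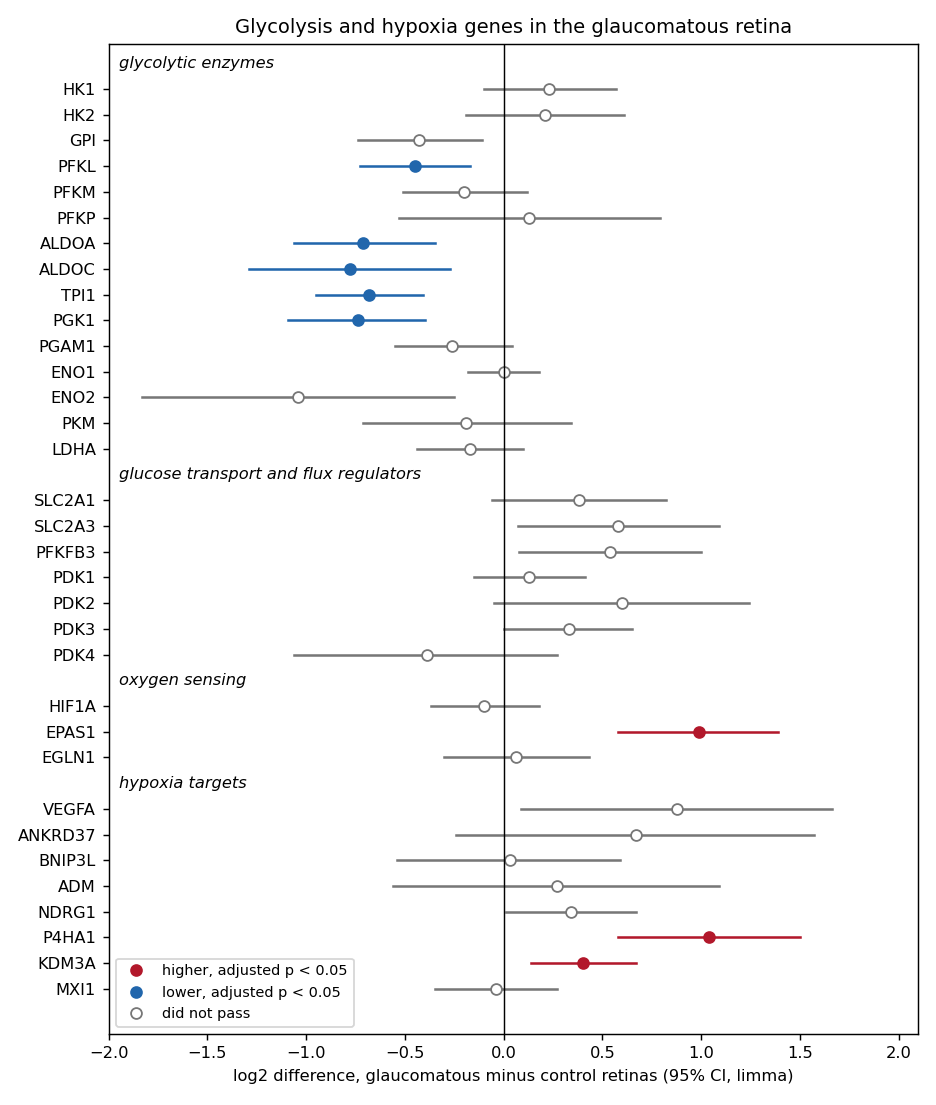
Difference in log2 intensity (glaucomatous minus control retinas, x axis) of the 33 members tested, grouped by role, with 95% confidence intervals from limma over 5 glaucomatous and 5 control retinas. The 5 filled blue points are the enzymes PFKL, ALDOA, ALDOC, TPI1 and PGK1, and the 3 filled red points are EPAS1, P4HA1 and KDM3A.

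Of the 17 glycolytic enzymes, 15 were tested: 5 fell, 0 rose and 10 did not pass, with a median difference of -0.26 and a range of -1.04 to 0.23. The difference was negative for 11 of the 15, beside 4022 of all 7900 genes, of which 8.65% fell. The 8 genes tested between aldolase and pyruvate kinase had a median of -0.69, and 4 of them fell. This stretch was chosen with earlier results of these data known, so its median is a description only. It leaves out PFKL, which fell, and HK1, HK2, GPI, PFKM, PFKP and LDHA, which did not pass. In 4 enzymes (ALDOC, TPI1, PGK1 and ENO2) all 5 glaucomatous retinas were lower than the lowest control. That makes 4 of the 33 members (12.1%), beside 7.84% of all genes.

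TPI1, triosephosphate isomerase, interconverts the pair of 3-carbon sugars that aldolase makes. It measured 11.19 and 11.35 in the younger and older Shiba Inu, 11.55 and 10.97 in the younger and older Basset Hound and 11.27 in the Dalmatian, against 11.79, 11.93, 11.85, 12.04 and 12.11 in control Beagles 1 to 5. The highest glaucomatous retina, that of the younger Basset Hound, was below the lowest control. TPI1 fell by 0.68 (SE 0.12, adjusted p = 0.00392), to 62.5% of the control level. Its further expressed probe set fell by 0.65 (adjusted p = 0.0232).

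PGK1, phosphoglycerate kinase, carries out the first ATP-yielding step of glycolysis. Intensities were 11.44 and 11.83 in the younger and older Shiba Inu, 12.05 and 11.26 in the younger and older Basset Hound and 11.45 in the Dalmatian, against 12.17, 12.41, 12.27, 12.31 and 12.60 in the controls. Again the groups did not overlap, and the younger Basset Hound came nearest to the controls while the older Basset Hound was lowest. PGK1 fell by 0.74 (SE 0.16, adjusted p = 0.00893), to 59.7% of the control level. It had a single expressed probe set, which shares probes with other transcripts.

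The aldolases split fructose-1,6-bisphosphate, and ALDOA is the form found in most tissues whereas ALDOC is the brain form. For ALDOA the younger and older Shiba Inu had 12.05 and 12.13, the younger and older Basset Hound 12.46 and 11.72 and the Dalmatian 11.78, against 12.40, 12.79, 12.61, 12.86 and 13.01 in the controls. The younger Basset Hound lay above control Beagle 1, so the groups overlapped by 1 retina on each side. ALDOA fell by 0.71 (SE 0.16, adjusted p = 0.0137), to 61.3% of the control level, and its further probe set fell by 0.75 (adjusted p = 0.0496).

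For ALDOC the values were 11.99 and 13.33 in the younger and older Shiba Inu, 13.26 and 12.94 in the younger and older Basset Hound and 12.46 in the Dalmatian, against 13.46, 13.59, 13.59, 13.54 and 13.69 in the controls. The groups did not overlap, although the SD was 0.57 in glaucoma and 0.08 in controls. The difference was -0.78 (SE 0.23, adjusted p = 0.0418), a level of 58.3% of the controls, and the further probe set fell by 0.95 (adjusted p = 0.04). Without the younger Shiba Inu, the retina with the lowest value, ALDOC still fell, by 0.58 (adjusted p = 0.0376). The call was lost without the older Basset Hound, without the Dalmatian or without any 1 control, where adjusted p reached 0.102.

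PFKL is the liver form of phosphofructokinase, the enzyme of the committed step of glycolysis. Its values were 11.21 and 11.53 in the younger and older Shiba Inu, 11.74 and 11.20 in the younger and older Basset Hound and 11.56 in the Dalmatian, against 11.82, 11.72, 11.96, 11.90 and 12.09 in the controls. Only the younger Basset Hound reached into the control range, above control Beagle 2. PFKL fell by 0.45 (SE 0.13, adjusted p = 0.0358), to 73.2% of the control level. Its other 3 probe sets differed by -0.28, -0.43 and -0.47 without passing (adjusted p = 0.391, 0.146 and 0.0956), and the call was lost in 8 of 10 fits that each left out 1 retina, being kept without the older Shiba Inu or the younger Basset Hound (adjusted p 0.0171 to 0.0907 over the 10 fits). The isoforms PFKM and PFKP differed by -0.20 (adjusted p = 0.372) and 0.13 (adjusted p = 0.804).

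**Figure D2:**
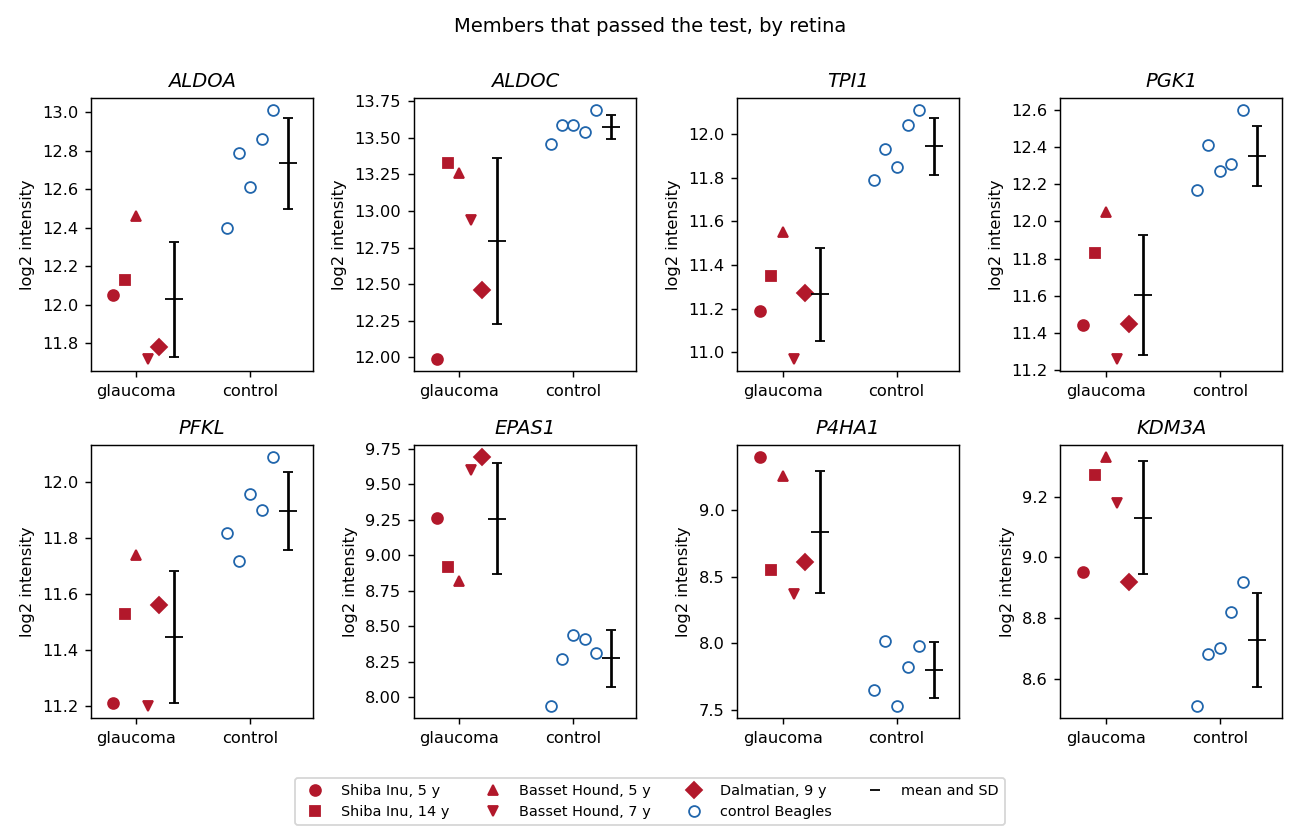
Log2 intensity (y axis) of the 8 members that passed the test in each retina, glaucomatous dogs left with 1 symbol per dog and control Beagles right, with the mean and SD of each group (n = 5 each). The groups do not overlap for ALDOC, TPI1, PGK1, EPAS1 and P4HA1, and meet or overlap for ALDOA, PFKL and KDM3A.

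ENO2, the neuron-specific enolase, which acts just before pyruvate kinase, had the most negative difference of all members and did not pass. Its values were 9.70 and 11.87 in the younger and older Shiba Inu, 11.79 and 11.69 in the younger and older Basset Hound and 10.87 in the Dalmatian, against 12.23, 12.24, 12.27, 12.15 and 12.23 in the controls. All glaucomatous retinas were below all controls, which had an SD of 0.04, but they were widely scattered, with an SD of 0.92. The difference was -1.04 (95% CI -1.83 to -0.25, SE 0.36, adjusted p = 0.0709), and those of the further 2 probe sets were -0.90 and -0.80 (adjusted p = 0.22 and 0.212). Without the younger Shiba Inu the difference was smaller, at -0.67, and passed (adjusted p = 0.0305), as it did without the older Shiba Inu or the younger Basset Hound (adjusted p = 0.0459 and 0.0496).

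The other enzymes gave smaller differences. ENO1, the enolase of most cell types, averaged 14.11 ± 0.06 in glaucomatous and 14.11 ± 0.05 in control retinas (SD, n = 5 each), a difference of 0.00 with a 95% CI of -0.18 to 0.18. LDHA, the lactate dehydrogenase subunit that favours making lactate, averaged 12.66 ± 0.16 and 12.83 ± 0.20 in glaucomatous and control retinas, a difference of -0.17 (95% CI -0.44 to 0.10, adjusted p = 0.368). For GPI, which makes fructose-6-phosphate, the means were 11.72 ± 0.27 and 12.15 ± 0.18 and the difference -0.43 just missed the threshold (adjusted p = 0.0655). The hexokinases HK1 and HK2, which trap glucose in the cell, differed by 0.23 (adjusted p = 0.316) and 0.21 (adjusted p = 0.451). PGAM1, phosphoglycerate mutase, differed by -0.26 (adjusted p = 0.207) and PKM, pyruvate kinase, by -0.19 (adjusted p = 0.621). PKM was the only one of the 22 genes with several expressed probe sets in which these differed in sign (-0.19 and 0.04).

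**Figure D3:**
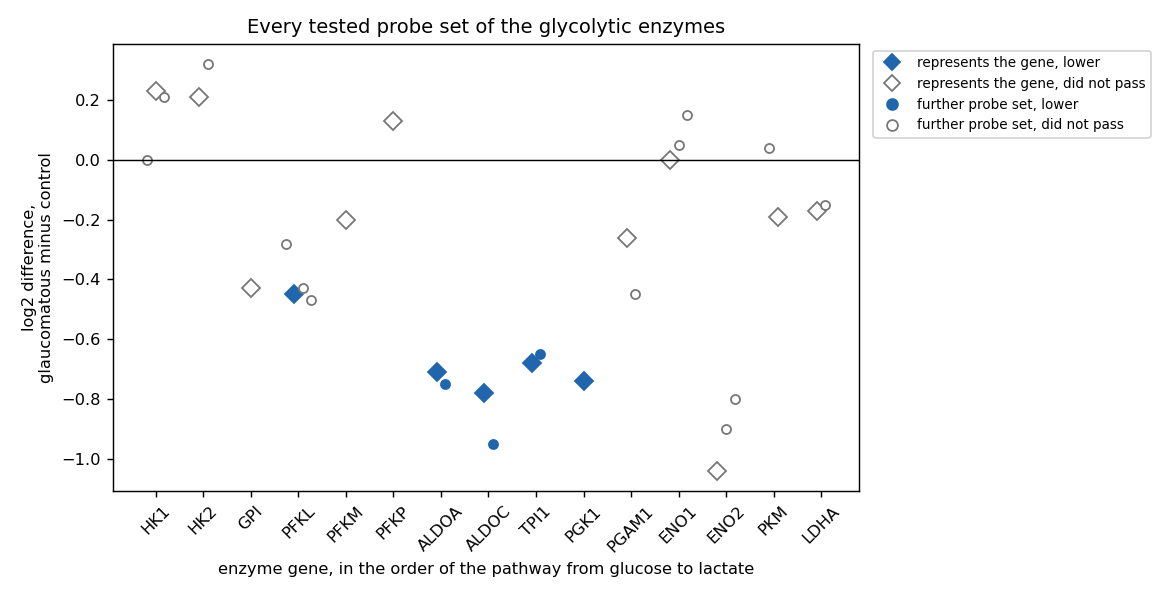
Difference in log2 intensity (glaucomatous minus control, y axis) of every expressed probe set of the 15 glycolytic enzymes tested, in pathway order from glucose to lactate (x axis). Each diamond is the probe set that represents the gene and each circle a further one. Filled symbols fell, and they lie at PFKL, ALDOA, ALDOC, TPI1 and PGK1.

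GAPDH, which oxidises glyceraldehyde-3-phosphate and is often used as a reference transcript, was below the expression limit on its 1 probe set outside the array's controls. Read without that limit, in a fit over 42924 probe sets, that probe set had 6.06, 6.55, 6.23, 6.25 and 6.23 in the younger and older Shiba Inu, the younger and older Basset Hound and the Dalmatian, against 6.83, 6.66, 6.61, 6.78 and 6.73 in the controls, a difference of -0.46 (adjusted p = 0.0142). The array also carries 6 control probe sets for GAPDH, 3 of them annotated with its symbol, which were above 7 in all 10 retinas and lay outside the fit. All 6 had a lower mean in glaucoma, by 0.17 to 0.26, at 83.3% to 88.8% of the control level. By exact two-sided permutation tests of the 252 splits, adjusted over the 6 probe sets, the pair for the 3′ end reached p = 0.048 each and the others p = 0.095 to 0.286. A further PGK1 probe set below the limit, which may bind unrelated transcripts, differed by -1.07 in the same unfiltered fit (adjusted p = 0.000654). It had 5.48, 5.53, 5.78, 5.17 and 5.33 in glaucoma, against 6.73, 6.75, 6.26, 6.48 and 6.41 in controls. The other PGK1 probe set below the limit differed by -0.03 there (adjusted p = 0.895).

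The glaucomatous retinas did not share 1 profile of these enzymes. The younger Shiba Inu was the lowest of all 10 retinas in 9 of the 15 enzymes, with a median deviation from the control mean of -0.68. The older Basset Hound was lowest in 4, which were PFKL, ALDOA, TPI1 and PGK1. The older Shiba Inu had a median deviation of -0.02 and was the highest of all 10 in HK2, PFKM, PFKP and PKM, while control Beagle 5 was highest in 8 enzymes. These counts are descriptions, since enzymes read on the same array are not independent.

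Of the 9 glucose transporters and regulators of flux, 7 were tested and none passed, although 6 of the 7 differences were positive (median 0.38, range -0.39 to 0.60). Over all 7900 genes, 3878 differences were positive. The per-dog values that follow, for these genes and for VEGFA, ANKRD37 and ADM, were picked after they had been seen. SLC2A1 encodes the glucose transporter GLUT1 of the blood-retina barrier. It had 13.53 in the younger Shiba Inu, 12.50 in the older Shiba Inu, 12.64 and 12.38 in the younger and older Basset Hound and 12.81 in the Dalmatian, against 12.26, 12.29, 12.26, 12.66 and 12.47 in the controls. Apart from the younger Shiba Inu and the Dalmatian the glaucomatous retinas lay within the control range. The difference of 0.38 did not pass (adjusted p = 0.217) and was 0.19 without the younger Shiba Inu.

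SLC2A3, the neuronal glucose transporter GLUT3, had 9.83 and 9.33 in the younger and older Shiba Inu, 10.27 and 8.84 in the younger and older Basset Hound and 9.84 in the Dalmatian, against 9.23, 9.08, 9.18, 8.83 and 8.90 in the controls. All but the older Basset Hound were above the controls. The difference was 0.58 (adjusted p = 0.112), and without that dog it was 0.78 and passed (adjusted p = 0.0193), while without the younger Basset Hound it was 0.42 (adjusted p = 0.18). PFKFB3, whose product makes the activator of phosphofructokinase, had 8.18, 7.94, 8.60, 7.45 and 7.65 in the same order of glaucoma dogs, against 7.37, 7.74, 7.09, 7.58 and 7.35 in controls, a difference of 0.54 (adjusted p = 0.103). The older Basset Hound was again the lowest of the glaucomatous retinas, and without it the difference was 0.67 (adjusted p = 0.0498), while without the younger Basset Hound it was 0.38 (adjusted p = 0.157).

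The pyruvate dehydrogenase kinases keep pyruvate out of the mitochondrion by switching off pyruvate dehydrogenase. PDK2 had 8.71 in the younger Shiba Inu, 7.48 in the older, 6.96 and 7.22 in the younger and older Basset Hound and 7.73 in the Dalmatian, against 6.84, 6.85, 6.77, 7.54 and 7.10 in the controls. Control Beagle 4 had the highest control value of both SLC2A1 and PDK2, and it and the younger Shiba Inu had the highest pigment epithelium markers of their groups. The Dalmatian, next in both genes among the glaucomatous retinas, had a summed marker intensity of 29517. All 5 glaucomatous sums (10193 to 61174) exceeded those of the other 4 controls (6101 to 8222). The orders did not match throughout, since SLC2A1 was higher in the younger Basset Hound (12.64, sum 10193) than in the older (12.38, sum 22684). The younger Shiba Inu also had the most extreme median deviations of rod (-2.94), Müller glia (1.61) and microglia markers (2.67). The part of any cell type in these differences was not tested. Without the younger Shiba Inu alone the PDK2 difference was 0.33 (adjusted p = 0.274). Without the younger Shiba Inu and control Beagle 4 the differences were 0.26 for SLC2A1 (adjusted p = 0.196) and 0.46 for PDK2 (adjusted p = 0.105), against 0.38 and 0.60 over all retinas. PDK1, PDK3 and PDK4 differed by 0.13, 0.33 and -0.39 (adjusted p = 0.507, 0.147 and 0.398).

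Of the 4 genes of oxygen sensing, 3 were tested, of which 1 rose and 0 fell, beside 8.04% and 8.65% of all 7900 genes. EPAS1, the HIF-2α subunit, is prominent in endothelium and glia. It had 9.26 and 8.92 in the younger and older Shiba Inu, 8.82 and 9.60 in the younger and older Basset Hound and 9.69 in the Dalmatian, against 7.94, 8.27, 8.44, 8.41 and 8.31 in the controls. Every glaucomatous retina was above every control, with the older Basset Hound and the Dalmatian highest. EPAS1 rose by 0.99 (SE 0.18, adjusted p = 0.0046), which is 1.98-fold, but its further probe set differed by 0.35 (adjusted p = 0.197). That probe set shares probes with other transcripts and lay near the expression limit, at 6.64 to 7.61 in glaucoma and 6.45 to 6.84 in controls. It exceeded 7 in 2 glaucomatous and 0 control retinas, so that it entered the test only through the glaucomatous retinas.

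HIF1A, the HIF-1α subunit, averaged 12.62 ± 0.22 in glaucomatous and 12.72 ± 0.14 in control retinas, a difference of -0.10 (95% CI -0.37 to 0.18, adjusted p = 0.628). HIF-1α is known to be controlled mainly at the level of protein stability, which an array does not read. EGLN1, the main prolyl hydroxylase that marks the HIF subunits, averaged 7.96 ± 0.33 in glaucomatous and 7.90 ± 0.20 in control retinas (difference 0.06, adjusted p = 0.824). The 2 probe sets of EGLN3 below the expression limit differed by 0.17 and 0.01 in the unfiltered fit, and neither passed.

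Of the 10 hypoxia targets, 8 were tested, of which 2 rose and 0 fell, and 7 of the 8 differences were positive (median 0.37). Of all 7900 genes, 8.04% rose, 8.65% fell and 3878 had a positive difference. P4HA1 encodes the catalytic subunit of the prolyl hydroxylase that collagen needs to fold. It had 9.40 and 8.55 in the younger and older Shiba Inu, 9.26 and 8.37 in the younger and older Basset Hound and 8.61 in the Dalmatian, against 7.65, 8.02, 7.53, 7.82 and 7.98 in the controls. The groups did not overlap, and the younger Shiba Inu and the younger Basset Hound were highest. P4HA1 rose by 1.04 (SE 0.21, adjusted p = 0.00684), or 2.05-fold. Of its further expressed probe sets, one rose by 1.0 (adjusted p = 0.0116) and the other differed by 0.91 (adjusted p = 0.0714). EPAS1 and P4HA1 were the 2 members (6.06%) with all glaucomatous retinas above all controls, beside 7.29% of all genes.

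KDM3A, a histone H3 lysine demethylase induced by HIF, had 8.95 and 9.27 in the younger and older Shiba Inu, 9.33 and 9.18 in the younger and older Basset Hound and 8.92 in the Dalmatian, against 8.51, 8.68, 8.70, 8.82 and 8.92 in the controls. Control Beagle 5 and the Dalmatian were alike to 2 decimals, with the control marginally higher, and the other glaucomatous retinas were above all controls. KDM3A rose by 0.40 (SE 0.12, adjusted p = 0.0414), or 1.32-fold, and its further probe set rose by 0.44 (adjusted p = 0.023) but exceeded 7 in 4 glaucomatous and 0 control retinas, so that it entered the test only through the glaucomatous retinas. Of 10 fits that each left out 1 retina, the call was lost in 7, being kept without the younger Shiba Inu, the Dalmatian or control Beagle 5 (adjusted p 0.0289 to 0.0978 over the 10 fits).

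VEGFA, the vascular growth factor that drives new and leaky vessels, had 10.67 and 9.61 in the younger and older Shiba Inu, 11.31 and 9.04 in the younger and older Basset Hound and 9.93 in the Dalmatian, against 9.17, 9.08, 9.15, 9.59 and 9.18 in the controls. The older Basset Hound was the lowest of all 10 retinas and the younger Basset Hound the highest. The difference was 0.88 (95% CI 0.09 to 1.66, SE 0.36) and did not pass (adjusted p = 0.115). Without the older Basset Hound it was 1.15 and passed (adjusted p = 0.0324), and without the younger Basset Hound it was 0.58 (adjusted p = 0.164).

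ANKRD37, a small ankyrin-repeat protein induced by HIF-1, had 9.39 and 9.17 in the younger and older Shiba Inu, 10.97 and 8.88 in the younger and older Basset Hound and 8.17 in the Dalmatian, against 8.86, 8.70, 8.54, 8.80 and 8.35 in the controls (difference 0.67, adjusted p = 0.289). ADM, the vasodilator peptide adrenomedullin, had 9.53, 9.75, 11.30, 9.21 and 9.58 in the same order, against 8.80, 9.85, 9.45, 9.94 and 10 in the controls (difference 0.27, adjusted p = 0.661). Both were highest in the younger Basset Hound, and without that dog the difference was 0.25 for ANKRD37 (adjusted p = 0.464) and -0.09 for ADM (adjusted p = 0.816). Of the remaining targets, BNIP3L, a mitophagy receptor, differed by 0.03 (adjusted p = 0.958), NDRG1, a stress-induced differentiation gene, by 0.34 (adjusted p = 0.146) and MXI1, an antagonist of MYC, by -0.04 (adjusted p = 0.866). The representing probe set of NDRG1 exceeded 7 in fewer than 2 control retinas.

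**Figure D4:**
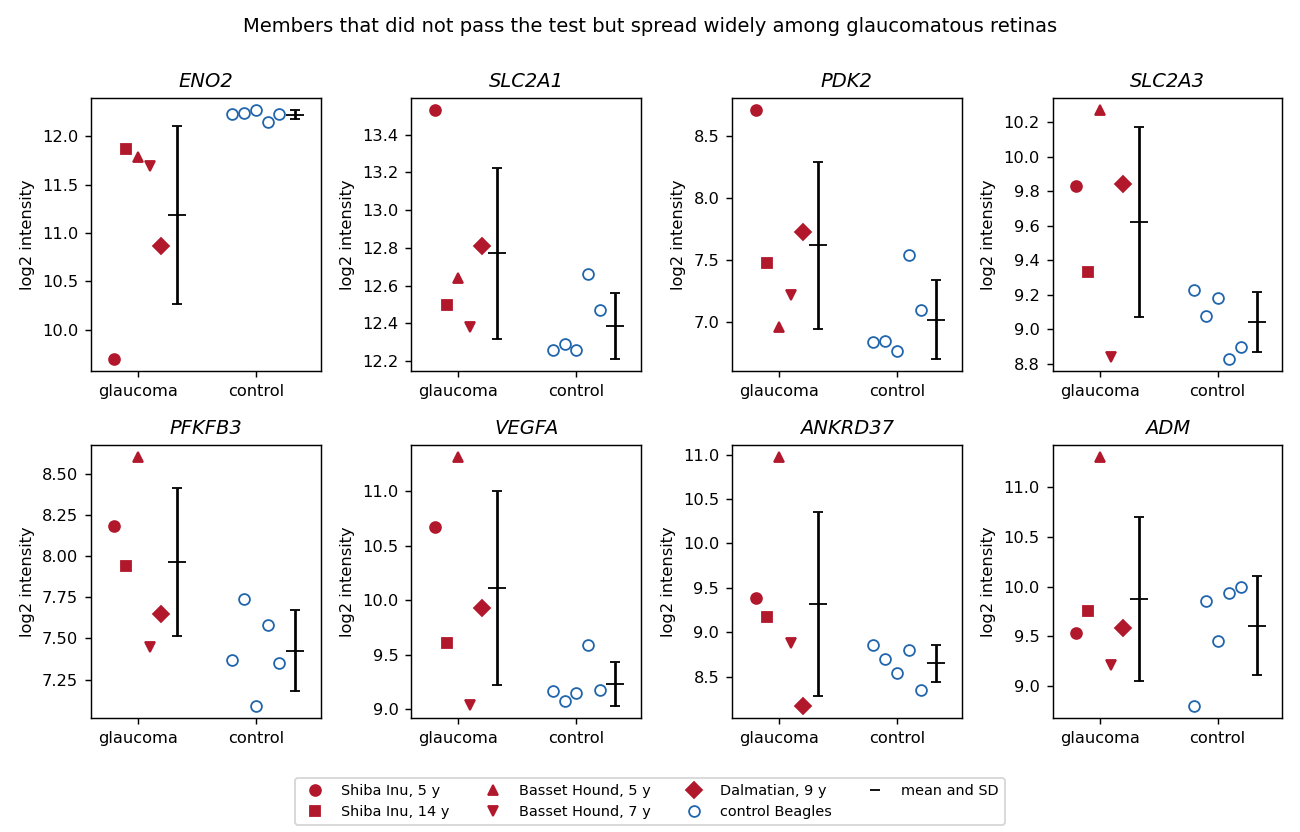
Log2 intensity (y axis) of 8 members that did not pass the test in each retina, glaucomatous dogs left with 1 symbol per dog and control Beagles right, with the mean and SD of each group (n = 5 each). ENO2 is lowest and SLC2A1 and PDK2 are highest in the younger Shiba Inu, whereas SLC2A3, PFKFB3, VEGFA, ANKRD37 and ADM are highest in the younger Basset Hound.

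Across the 8 hypoxia targets, the younger Basset Hound was the highest of all 10 retinas in 5 (VEGFA, ANKRD37, ADM, KDM3A and MXI1), with a median deviation from the control mean of 1.04. That median was 0.47 in the younger Shiba Inu, 0.39 in the older Shiba Inu, 0.16 in the Dalmatian and 0.07 in the older Basset Hound, against -0.11 to 0.10 in the controls. In the older Basset Hound the targets went both ways. P4HA1, KDM3A, NDRG1 and ANKRD37 were above every control, ANKRD37 narrowly (8.88 against at most 8.86). VEGFA (9.04 against at least 9.08) and BNIP3L (7.98 against at least 8.06) were narrowly below every control. The younger Basset Hound had the highest glaucomatous values of ALDOA, TPI1, PGK1 and PFKL. DDIT4, an inhibitor of mTOR signalling that responds to hypoxia, was below the expression limit. It had 7.54 in the younger Shiba Inu, 6.85 in the younger Basset Hound and 5.66 to 5.96 in the other 8 retinas. It did not pass in the unfiltered fit (difference 0.65, adjusted p = 0.235). The probe set with this difference may bind unrelated transcripts, and the other DDIT4 probe set differed by 0.6 there (adjusted p = 0.165). BNIP3, PFKFB2 and PFKFB4 differed there by 0.12, 0.22 and 0.02 without passing.

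**Figure D5:**
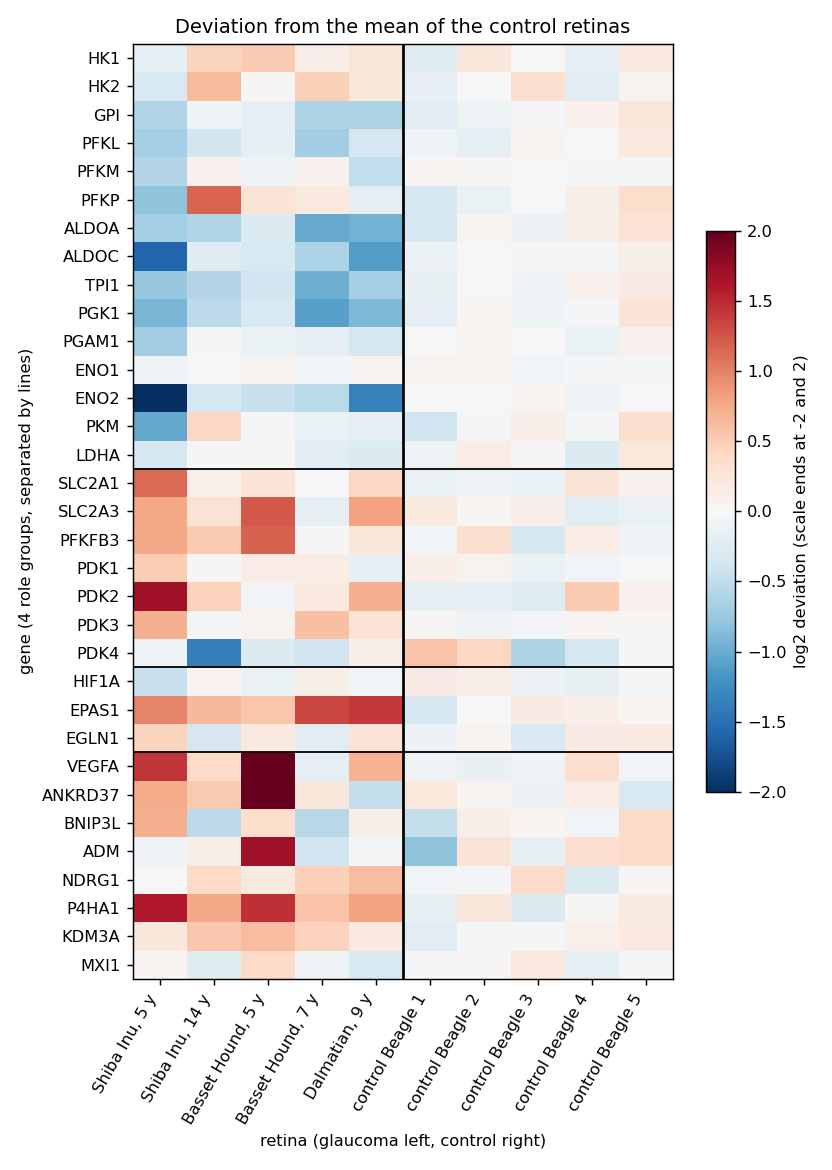
Deviation of the log2 intensity from the mean of the control retinas (colour, scale ending at -2 and 2) for the 33 members tested (rows, in 4 role groups) in each retina (columns, glaucoma left and control right). The enzymes from ALDOA to PGK1 are blue in all 5 glaucomatous retinas. Of the hypoxia targets, VEGFA, ANKRD37, ADM, KDM3A and MXI1 are darkest red in the younger Basset Hound.

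Counted by probe set, 5 of the 64 expressed probe sets of members rose and 8 fell, while 7.58% and 9.4% of all 18416 expressed probe sets did so. Of the 64 probe sets, 33 share probes with other transcripts and 1 may bind unrelated ones, and 6 exceeded 7 in fewer than 2 control retinas, so that these passed the expression limit through the glaucomatous retinas. In 21 of the 22 genes with several expressed probe sets these had the same sign.

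Further genes of the same pathways were read from lists of textbook members. Of 65 further genes of glucose metabolism, 34 were tested, of which 3 rose (8.82%) and 5 fell (14.7%), beside 8.04% and 8.65% of all genes, with a median difference of 0.03. FBP2, a fructose bisphosphatase that runs the phosphofructokinase step backwards, rose by 1.98 (SE 0.38, adjusted p = 0.00517), with 6.57 to 9.00 in glaucoma against 5.37 to 6.08 in controls, none of which exceeded 7. RPE, here the pentose phosphate enzyme ribulose-5-phosphate epimerase, rose by 0.54 (adjusted p = 0.0411), and PC, pyruvate carboxylase, rose by 0.55 (adjusted p = 0.0474), with 3 glaucomatous and 0 control retinas above 7. Among those that fell were PKLR, the liver and red cell pyruvate kinase (-0.67, adjusted p = 0.00801), TKT, the transketolase of the pentose phosphate pathway (-0.79, adjusted p = 0.0124), and PDHA1 and PDHX, subunits of pyruvate dehydrogenase (-0.45 and -0.69, adjusted p = 0.0133 and 0.0158). No PKLR value in glaucoma exceeded 7, so FBP2 and PC entered the test only through the glaucomatous retinas and PKLR only through the controls.

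Of 83 further genes of the hypoxia response, 47 were tested, of which 7 rose (14.9%) and 4 fell (8.51%), beside the same 8.04% and 8.65% of all genes, with a median difference of 0.08. CP, the copper-carrying ferroxidase ceruloplasmin, rose by 3.51 (SE 0.37, adjusted p = 0.000179), with 10.47 to 12.36 in glaucoma against 7.29 to 8.73 in controls. MCL1, an inhibitor of apoptosis, rose by 0.85 (adjusted p = 0.0107), ANGPTL4, a secreted inhibitor of lipoprotein lipase, by 0.60 (adjusted p = 0.0135) and FLT1, a VEGF receptor, by 0.66 (adjusted p = 0.0146). ANGPT2, which loosens vessel walls, fell by 1.08 (adjusted p = 0.00561), HIGD1A, a mitochondrial protein, by 0.87 (adjusted p = 0.00666), COX4I2, a cytochrome oxidase isoform, by 0.97 (adjusted p = 0.0135) and SLC6A8, the creatine transporter, by 0.52 (adjusted p = 0.0413). ANGPT2 exceeded 7 in 0 glaucomatous and 3 control retinas and COX4I2 in 1 and 4, so both entered the test through the controls.

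Markers of several retinal cell types moved with the groups. All 8 tested markers of amacrine, horizontal and bipolar cells fell, with a summed intensity of 714 to 5522 in glaucoma against 13704 to 16101 in controls, and 7 of 10 tested markers of ganglion cells fell, with sums of 7429 to 11989 against 18724 to 31932. Another ganglion cell marker, SNCG, which is part of the ganglion cell sums, rose by 2.52 on its brightest expressed probe set (adjusted p = 0.000195). It had 11.35 to 12.79 in glaucoma against 9.09 to 9.93 in controls. On another probe set of these arrays the study lists SNCG as decreased in glaucoma, so the direction depends on the probe set. Of 10 cone markers 3 fell (sums of 5042 to 26810 in glaucoma against 28624 to 34987 in controls), and of 13 rod markers none passed (16584 to 108225 against 86883 to 118454). All 11 tested markers of microglia and macrophages rose (10814 to 24051 in glaucoma against 2457 to 3688 in controls), as did 4 of 13 markers of Müller glia and astrocytes (65076 to 85401 against 58415 to 67369). Of 6 tested markers of endothelium and pericytes 2 rose, with overlapping sums (3421 to 5001 in glaucoma against 3345 to 4852 in controls), and of 14 pigment epithelium markers 1 rose (10193 to 61174 against 6101 to 39692). Of 10 red blood cell markers, only 4 had a probe set, and none of these was expressed. The part of these cell types in the differences of the members was not tested.

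The younger Shiba Inu and control Beagle 4 had the highest pigment epithelium markers in their groups. Leaving out both, 3 enzymes fell and 3 members rose, beside 555 and 562 of 7712 expressed genes. P4HA1 was among the members that rose, by 0.90 (adjusted p = 0.0178). RNA integrity was read from the actin control probes, as signal at the 3′ end over signal at the 5′ end. On the log2 scale this ratio was 1.56 ± 0.13 in glaucoma and 1.83 ± 0.17 in controls (SD, n = 5 each, exact two-sided permutation p = 0.032). With this ratio as a covariate none of the 33 members passed, although the 8 that had passed kept their direction, with differences of -0.44 for PFKL, -0.80 for ALDOA, -0.56 for ALDOC, -0.71 for TPI1, -0.77 for PGK1, 0.78 for EPAS1, 0.92 for P4HA1 and 0.38 for KDM3A (adjusted p = 0.0702 to 0.438). Since the ratio differed between the groups, its part and that of the disease cannot be told apart.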

How the data were processed

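The authors normalized the arrays with RMA, which subtracts background, equalizes the distribution of probe intensities over arrays and summarizes each probe set, and deposited intensity values on a linear scale for 43035 probe sets in 10 retinas. Log2 values were taken, and 111 control probe sets were set aside. Following the study's definition, the 18416 probe sets above 7 in at least 2 samples were kept. Glaucoma and control (5 arrays each) were set against each other in limma (version 3.58.1, under R 4.3.3), and p-values were adjusted over these probe sets after Benjamini and Hochberg. Differences have limma SEs and means have SDs over dogs. A gene was represented by its expressed probe set with the highest mean. Symbols came from the platform's annotation, in which 29254 probe sets had 1 symbol, 439 several and 13231 none. Of 39 Entrez identifiers of members, 36 were found in the RefSeq gene table, all with the same symbol.

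The members, lists and alternatives were chosen with earlier results of these data known. By rule, values per dog are given for members that passed or that differed by at least 1, those of 7 others and of 3 probe sets below the limit (GAPDH, PGK1 and DDIT4) having been picked after they were seen, and up to 4 genes per direction are named from each further list. Alternatives were other filters, normalizations, array weights, variance models, the exact Wilcoxon test, the methods' t-test, a 2-fold minimum, the replicate number as a block, age or the actin ratio as covariates, breeds or single retinas left out and other probe set choices. SAM, which the study used, was not run. The procedure was tested on simulated data. Arrays have no read depth, and their number limits the precision. The labels call the samples biological replicates. Real-time PCR and histology were not analysed here.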

Additional observations from a re-analysis of the deposited data

Results flagged for a closer look

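VEGFA in control Beagle 4 was 9.59, apart from the other controls at 9.08 to 9.18, with a gap to the nearest of them of 0.799 of the range of the group. ADM in the younger Basset Hound was 11.3, apart from the other glaucomatous retinas at 9.21 to 9.75, with a gap of 0.745 of the range. These were 2 of 66 groups examined (33 members in each of 2 groups of 5 retinas), and chance alone marks about 1 in 20 groups this way.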

How the results depend on the processing

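The numbers of members that rose and fell were 3 and 5, and those of expressed probe sets 1396 and 1732. With array weights 5 members rose, and 2095 probe sets rose and 2811 fell. After adjustment the exact Wilcoxon test gave 0 members and 0 probe sets in either direction, with 3 members that rose, 6 that fell, 2171 probe sets that rose and 2669 that fell at an unadjusted p under 0.05. A 2-fold minimum left 1 member that rose and 0 that fell, and 544 and 574 probe sets. With age as a covariate 3 members and 886 probe sets fell. With the actin ratio as a covariate 0 members rose and 0 fell, beside 252 and 337 probe sets. Without both Basset Hounds 5 members rose (EPAS1, P4HA1, SLC2A3, PDK2 and VEGFA), beside 642 of 7810 expressed genes. With the dimmest expressed probe set of each gene 1 member rose, KDM3A, beside 608 of all 7900 genes. With that choice EPAS1 (0.35, adjusted p = 0.197) and P4HA1 (0.91, adjusted p = 0.0714) did not pass. The probe sets of KDM3A and EPAS1 used there entered the test only through the glaucomatous retinas. Without the younger Shiba Inu and control Beagle 4, a choice made after seeing the data, 3 members fell, beside 555 of 7712 expressed genes. With 1 retina left out at a time, 2 to 5 members rose and 3 to 7 fell, and 866 to 1606 probe sets rose and 1111 to 2127 fell. The count of 3 that fell came without the older Basset Hound, the Dalmatian or any 1 control, and the count of 5 that rose without the older Basset Hound. The probe set counts moved most without control Beagle 2 (866 rose and 1111 fell) and without the Dalmatian (919 rose). ALDOA, TPI1, PGK1, EPAS1 and P4HA1 passed in all 10 of these fits. The numbers of the samples did not pair them, since correlations of same-numbered retinas were -0.24 to 0.07 and 0 of 5 glaucomatous retinas correlated best with its own number. With the replicate number as a block, 2 members (TPI1 and PGK1) and 1114 probe sets fell.

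Of 957 differences of single members under the alternatives, 836 kept their direction and side of the threshold, 66 lost a call, 18 gained one and 37 changed sign. Where only the test or the threshold changed, the difference stayed the same, and members that had not passed had no call to lose. The count of 836 is therefore no measure of how stable the differences were. The changes of sign were all in members that had not passed. With array weights ADM was at -0.0022, BNIP3L at -0.31, EGLN1 at -0.12 and ENO1 at -0.018. With the actin ratio BNIP3L was at -0.34, EGLN1 at -0.08, HIF1A at 0.0032 and MXI1 at 0.09. With age ENO1 was at -0.015, HK2 at -0.11, MXI1 at 0.17, PDK4 at 0.08 and PFKP at -0.46. ENO1 was at -0.015 with array medians subtracted and at -0.005 without the Basset Hounds, and without the Shiba Inus BNIP3L was at -0.027 and MXI1 at 0.0027. PKM was at 0.044 with the dimmest probe set. Without the younger Shiba Inu and control Beagle 4, PKM was at 0.017 and BNIP3L at -0.16. With 1 retina left out at a time, ADM ranged from -0.09 to 0.43, BNIP3L from -0.15 to 0.17, EGLN1 from -0.029 to 0.16, ENO1 from -0.016 to 0.02, MXI1 from -0.15 to 0.023, PFKP from -0.13 to 0.36 and PKM from -0.34 to 0.022. The cause of these changes was not tested.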
